A study of Mus musculus with 21 samples.

Results

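The drug-metabolizing cytochrome P450 (CYP) genes Cyp3a11, Cyp3a13, Cyp3a25, Cyp2b10, Cyp2c65 and Cyp1a1 and the xenobiotic receptor genes Nr1i2 and Nr1i3 were examined for vitamin D receptor (VDR) binding and open chromatin in the mouse intestine. These 8 genes, of 22380 protein-coding genes in the mm9 annotation, were taken by name as a group. For each, the peaks that overlapped the gene body or the 30 kb on either side by at least 1 bp were taken from the lists that the authors called on the pooled samples of each compartment. No window of one member overlapped that of another. VDR ChIP-seq, which recovers the DNA bound by VDR, was done on 4 samples each of colon, SI crypt and SI villus from C57BL/6 mice (C57BL/6J in the protocol text and the study's methods; 4 to 6 weeks old in the labels, older in the methods). Every one of these mice had been given 1,25(OH)2D3, the hormonal form of vitamin D that VDR binds, by ip injection at 10 ng/g, and was killed 1 h later. No sample of vehicle-treated mice was compared here, so the values are levels of binding under the hormone and not responses to it. ATAC-seq, which marks DNA open to a transposase, was done on 3 samples of each compartment from mice of the same strain, 90 days of age in the labels. The labels' protocol text describes the same hormone treatment for them, whereas the study's methods describe mice with no treatment. The SI crypts were the fraction of proximal SI epithelium that passed a strainer, the SI villi were the fraction held back, and the colon was whole, unfractionated epithelium scraped from the mucosa. The same mice supplied crypts, villi and colon, so a mouse may be behind samples of several compartments, and the labels do not link them.

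CYP enzymes of families 1, 2 and 3 are hemoproteins that oxidize drugs, toxins, steroids and bile acids, and in the gut they act on what is absorbed before it reaches the liver. Nr1i2 encodes the pregnane X receptor (PXR) and Nr1i3 the constitutive androstane receptor (CAR). These nuclear receptors pair with RXR, bind repeats of a hexamer and switch on CYP3A, CYP2B and CYP2C genes, while the CYP1 genes are the classical targets of the aryl hydrocarbon receptor. VDR belongs to the same nuclear receptor subfamily as PXR and CAR and also works as a pair with RXR.

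The 3 VDR lists held 137 peaks at the 8 genes, and their number differed between compartments. In the colon 5 of the 8 genes had a VDR peak, against a background of 63.1% of all protein-coding genes. In the SI crypt all 8 had one, where the background was 51.5%, and in the SI villus all 8 again, where it was 56.9%. The members held 16 VDR peaks in the colon, 30 in the SI crypt and 91 in the SI villus, and Cyp3a11, Cyp3a25 and Cyp1a1 were the genes with none in the colon. Cyp3a11, Cyp3a13, Cyp3a25, Cyp2b10 and Nr1i2 each had 10 or more in the SI villus, where the background was 1.28% of genes, and no member had 10 in the SI crypt (background 0.192%) or the colon (background 1.12%). With lists of equal length, made of the strongest pooled peaks, the counts were 11, 30 and 62. ATAC peaks at the members numbered 27, 58 and 74 in the same order and were found at 7, 8 and 8 of the genes, with backgrounds of 77.1%, 85.4% and 82.1%. With ATAC lists of equal length the counts were 27, 27 and 50, so that the SI crypt had no more than the colon. The gene with no ATAC peak in the colon was Cyp3a11.

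Most of the SI villus peaks were shallow and were called in the pooled data without a call in any single sample. A peak's fold enrichment is the height at its summit over the local background of the same sample, and its -log10 q is the strength of that call, which rises with depth as well as with enrichment. Of the 91 SI villus peaks, 63 had a fold enrichment under 2.5, as did 12.6% of all SI villus peaks, and 65 were called in none of the 4 single samples, as were 49.6% of all. In the SI crypt 11 of 30 were under 2.5-fold (8.06% of all peaks there) and 16 were called in no sample (35.4% of all). In the colon these counts were 6 of 16 (18.1% of all) and 9 (50.8% of all). ATAC peaks of the same compartment overlapped 3 of 16 member peaks in the colon, 7 of 30 in the SI crypt and 19 of 91 in the SI villus, beside 41.9%, 50.4% and 56.3% of all VDR peaks. Among the 9 SI villus member peaks with a fold enrichment of 4 or more, all 9 were called in at least 1 sample. Of these, 6 lay in an ATAC peak, where the share of all such SI villus peaks was 74.3%. At that fold the SI crypt had 4 of 7 called in a sample and 5 in an ATAC peak (63.6% of all such peaks). The colon had 1 of 3 called and 1 in an ATAC peak (56.1% of all such peaks). The share of all such peaks called in a sample was not counted. In such bulk samples a site bound in more of the cells and a site bound more strongly in each cell cannot be told apart.

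The samples were unequal. VDR ChIP-seq samples held 10588783 to 17970894 fragments, of which 28.5% to 85.0% remained once duplicates were removed, and gave 1136 to 13381 peaks each. SI crypt sample 1 had the lowest share kept and the most peaks, and it called 22 peaks in the member windows, against 1, 1 and 3 in the other SI crypt samples. Colon samples called 3, 3, 6 and 3 there and SI villus samples 17, 9, 2 and 13. Without SI crypt sample 1, 5 of the 30 SI crypt peaks had a call in at least 1 sample, against 14 with it, and the part of its duplicates in its calls was not tested. ATAC-seq samples held 32767083 to 62692175 tags and gave 21269 to 57825 peaks. In the ATAC-seq samples, a peak within 1 kb of the TSS was found in at least 2 samples for 5 of 5 SI enterocyte markers in the SI villus, 2 in the SI crypt and 0 in the colon, and for 4 of 4 crypt stem cell markers in the SI crypt, 1 in the SI villus and 0 in the colon. Of the colon markers, Aqp8 had such a peak in every sample of every compartment and Car1 and Slc26a3 had one in no sample, so these promoters do not set the colon samples apart. The leukocyte markers Ptprc, Cd3e and Cd79a had none in any sample, and of 3 stromal markers Col1a1 alone had one, in 2 of 3 SI crypt samples and 1 of 3 in the other compartments.

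By -log10 q, Nr1i2 held the strongest VDR peak of the group. Nr1i2, the gene of PXR, lies on the minus strand at chr16:38248409-38294910. Its leading peak was in an intron, 5.8 kb into the gene (positions are given in kb from the TSS along the gene, negative upstream), and was called in all 3 compartments. The pooled fold enrichment there was 5.41 in the colon, 7.14 in the SI crypt and 11.3 in the SI villus, with a -log10 q of 39.2, 70.3 and 193, at or above 93.4%, 96.4% and 98.7% of the peaks of each list.

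In single samples the Nr1i2 intron site was called in 4 of 4 SI villus samples, with a -log10 q of 87.8, 113, 9.44 and 17.9. In the colon it was called in samples 2, 3 and 4, at 10.4, 9.09 and 20.9. In the SI crypt samples 1 and 2 called it, at 40.6 and 19.8. SI villus samples 1 and 2 stood above every colon and SI crypt sample, while SI villus samples 3 and 4 lay within the range of the colon samples, so the compartments overlapped. The site was 1 of 3 member sites, of 100, called in a sample of every compartment (background 9.87% of all VDR sites), and the one member site called in all 4 samples of a compartment (background 3.83%). An ATAC peak lay over it in the SI villus (-log10 q of 8.78 in the pooled list, 2 of 3 samples), and none was called there in the colon or SI crypt.

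The other Nr1i2 peaks were weaker and included some that recurred. Downstream of the gene, at 48.5 kb in the SI villus, a broad peak of 1677 bp had a -log10 q of 37.9, with 16.0 in the SI crypt and 11.0 in the colon. It was called in colon samples 1, 2 and 3 (4.51, 4.54 and 3.97), in SI crypt sample 1 (15.9) and in SI villus samples 1 and 4 (9.89 and 18.0), and overlapped no ATAC peak. An intron peak at 14.9 kb appeared in all 3 pooled lists, at a -log10 q of 6.01 (colon), 5.62 (SI crypt) and 19.2 (SI villus), with calls in colon sample 4 and SI villus sample 1. At the Nr1i2 TSS a VDR peak was called in the SI villus list (fold enrichment of 3.23, -log10 q of 7.33), in no single sample. In total Nr1i2 had 5 VDR peaks in the colon, 4 in the SI crypt and 13 in the SI villus. By the rank of the leading peak of each gene window in each of the 12 VDR samples, the protein-coding genes most like Nr1i2 were Gpt, Mfsd3 and Recql4, neighbours on chromosome 15 that share one set of peaks, at a Pearson r of 0.966. Those 12 values share library depth, and the r is a description.

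**Figure D1:**
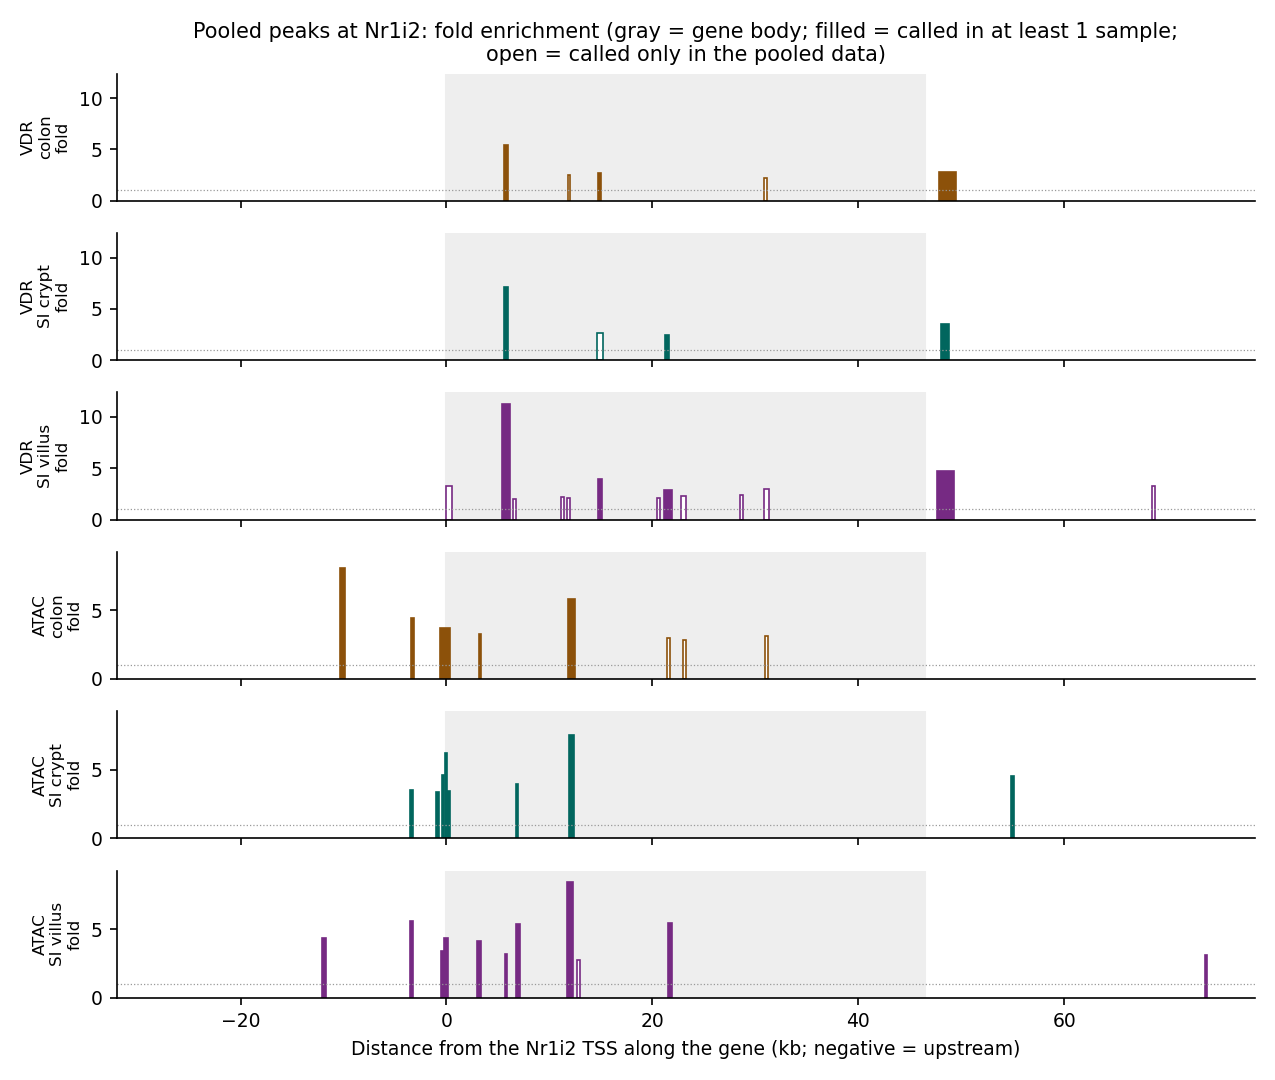
Pooled VDR and ATAC peaks around Nr1i2, with the distance from the TSS along the gene in kb on the horizontal axis and fold enrichment on the vertical axis, 1 row for each assay and compartment. Each bar is a peak drawn to its width, filled where at least 1 single sample called it, and the gray block is the gene body; the peak at 5.8 kb is the highest VDR bar of each compartment, and the SI villus row holds 13 VDR bars.

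Nr1i3, the gene of CAR, had VDR peaks that were mostly closer to the TSS of another gene. It lies on the plus strand at chr1:173144101-173150832, in a gene-dense window with 6 other protein-coding genes. Its windows held 2 VDR peaks in the colon, 3 in the SI crypt and 6 in the SI villus, but the TSS nearest to 9 of these 11 was that of another gene, chiefly Tomm40l. The leading peak, at 7.1 kb and inside Tomm40l, had a -log10 q of 17.9 in the SI villus (samples 1 and 4, at 4.69 and 8.53) and 9.60 in the SI crypt (sample 1, at 3.66), with no peak there in the colon. The peaks whose nearest TSS was that of Nr1i3 were both in the SI villus, at 0.2 kb (-log10 q of 5.60, no sample) and 2.9 kb (7.92, sample 2 at 2.72). A site at 5.5 kb lay in an exon of Nr1i3, though nearer to the Tomm40l TSS. Its -log10 q was 5.24 in the SI villus and 2.14 in the SI crypt, with a call in no sample.

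Cyp3a11, a main CYP3A enzyme of mouse liver and gut, had VDR peaks in the small intestine and none in the colon. The gene lies on the minus strand at chr5:146666002-146691540 and had 2 VDR peaks in the SI crypt and 17 in the SI villus. Its sharpest peak was upstream, at -20.6 kb, with a fold enrichment of 8.78 in the SI crypt and 8.54 in the SI villus and a -log10 q of 22.0 and 29.6. Cyp3a25, a neighbour in the same gene cluster at chr5:146788770-146821194 on the minus strand, had a peak of like shape at -11.7 kb, with a fold enrichment of 6.88 and 5.01 and a -log10 q of 14.0 and 8.65. The 200 bp at the summit of both sites are shown, on the strand of the genes, because they are the strongest CYP3A peaks by fold enrichment. The Cyp3a11 window is chr5:146712068-146712267 and the Cyp3a25 window chr5:146832833-146833032, both of mm9. Capitals mark the hexamers AGGTCA or AGTTCA as well as GGGTCA or GGTTCA on either strand, each a form of the nuclear receptor half-site.
Cyp3a11 -20.6 kb: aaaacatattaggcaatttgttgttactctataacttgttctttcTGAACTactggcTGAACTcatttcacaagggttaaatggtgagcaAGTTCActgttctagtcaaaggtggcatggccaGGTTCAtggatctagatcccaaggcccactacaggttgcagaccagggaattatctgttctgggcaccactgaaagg
Cyp3a25 -11.7 kb: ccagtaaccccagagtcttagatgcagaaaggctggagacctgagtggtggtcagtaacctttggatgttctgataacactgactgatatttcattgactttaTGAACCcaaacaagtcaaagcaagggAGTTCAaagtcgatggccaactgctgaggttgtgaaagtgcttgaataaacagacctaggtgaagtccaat
The Cyp3a11 window holds 4 hexamers and the Cyp3a25 window 2. The best ungapped alignment of the 2 windows reached 44.1% identity over 68 bp. It was made on the strand of the genes, so gapped or inverted copies would not be found by it. The same search over the other pairs of windows shown in the text gave 34.6% to 43.4%, over stretches of unequal length. The 44.1% thus does not set these 2 windows apart. The sources used here do not say how reads that match several members of the CYP3A, CYP2B or CYP2C clusters were placed, so values in those clusters are uncertain where copies are near-identical.

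Each of these upstream sites was called in 1 sample per compartment, and it was sample 4 each time. At the Cyp3a11 site SI crypt sample 4 gave a -log10 q of 9.01 and SI villus sample 4 gave 18.1, and at the Cyp3a25 site the values were 7.75 and 9.73. No colon sample called either site. Both sites lay in ATAC peaks. At -20.6 kb of Cyp3a11 the single ATAC samples gave a -log10 q of 25.1, 22.2 and 2.82 in the SI villus, 4.65 and 2.84 in SI crypt samples 1 and 3, and no call in the colon. At -11.7 kb of Cyp3a25 they gave 20.9, 18.4 and 3.67 in the SI villus, 4.05 in SI crypt sample 1 and no call in the colon. Chromatin was thus called open in 3 of 3 SI villus samples and 0 of 3 colon samples at both sites. No test was run on these calls, as an exact test of 3 samples against 3 cannot go below a two-sided p of 0.1.

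Further Cyp3a11 peaks were called in more samples. Just beyond the 3' end of the gene, at 27.1 kb, a peak 2671 bp wide had a -log10 q of 30.0 in the SI villus and was called in samples 1, 2 and 4 (6.37, 5.82 and 19.0), as well as in SI crypt sample 1 (9.52). An intron peak at 8.8 kb was called in SI villus samples 1 and 2 (12.6 and 7.17) and in SI crypt sample 1 (14.0). The promoter peak, at 0.3 kb, was called in SI villus samples 2 and 4 (7.09 and 7.61) and lay in an ATAC peak. At Cyp3a25 a peak beyond the 3' end, at 33.7 kb and 1853 bp wide, had a -log10 q of 21.8 in the SI villus (sample 4, at 12.8) and a call in SI crypt sample 1 (5.02), and a promoter peak at 0.3 kb had 13.4 (sample 4, at 10.1). None of these sites was called in a colon sample.

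**Figure D2:**
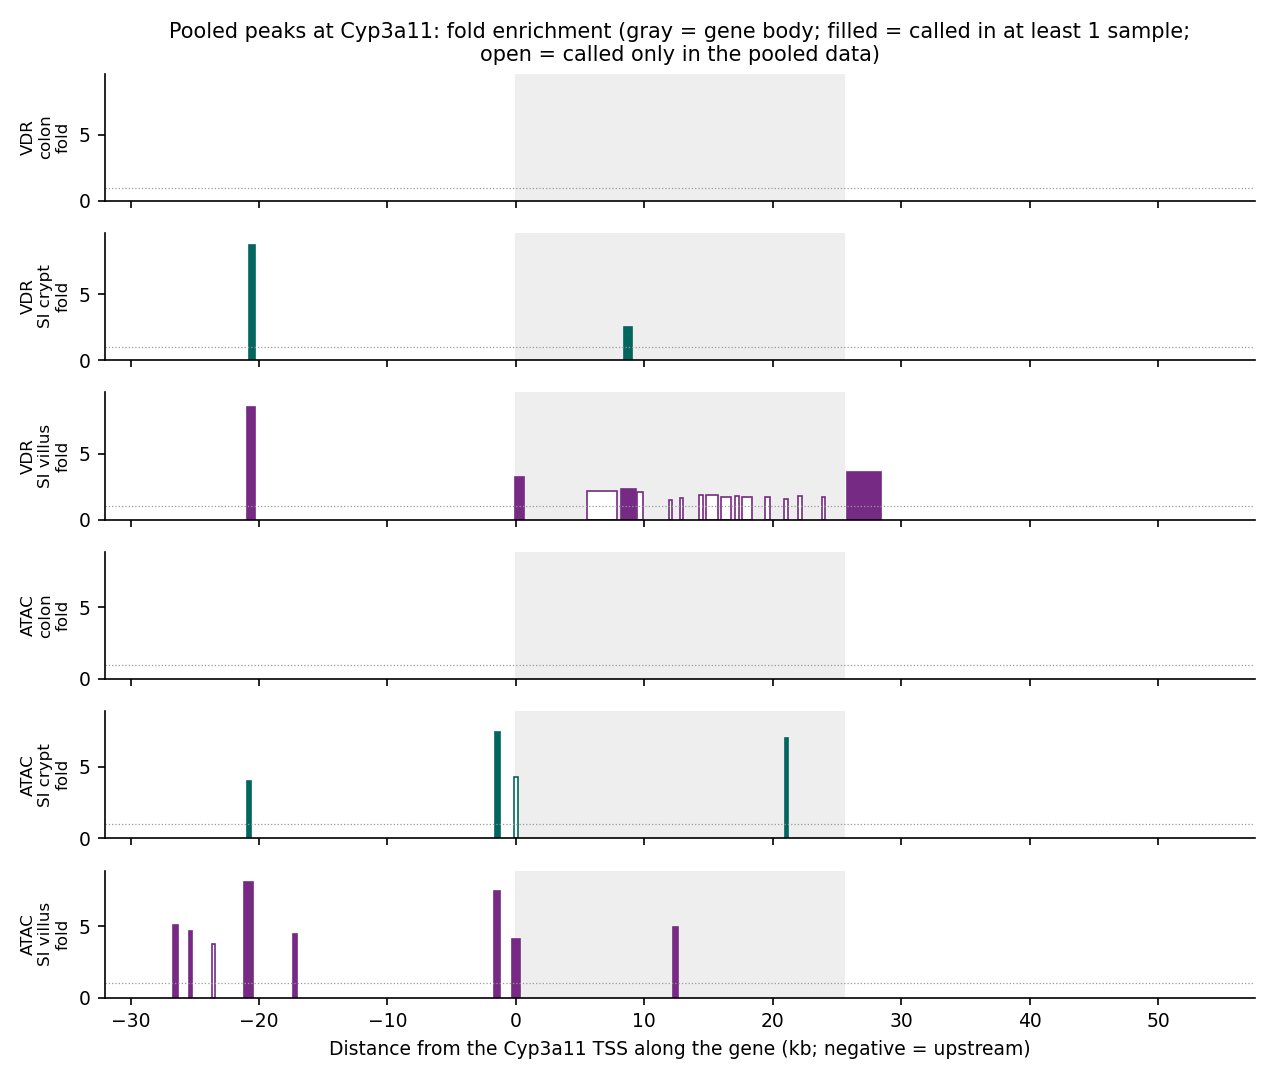
Pooled VDR and ATAC peaks around Cyp3a11, with the distance from the TSS along the gene in kb on the horizontal axis and fold enrichment on the vertical axis, 1 row for each assay and compartment. Each bar is a peak drawn to its width, filled where at least 1 single sample called it, and the gray block is the gene body; the colon rows are empty, the bar at -20.6 kb is the highest VDR bar in both SI rows, and low open bars run through the gene body in the SI villus.

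Cyp3a13, a CYP3A gene that lies apart from the cluster at chr5:138334160-138362847 on the minus strand, had many peaks and no strong one. It had 2 VDR peaks in the colon, 5 in the SI crypt and 18 in the SI villus. An intron site at 8.2 kb had a pooled peak in the colon (fold enrichment of 3.16) and the SI villus (2.23), and was called in colon sample 3 (5.15), SI crypt sample 1 (7.05) and SI villus sample 1 (6.49). All 5 pooled SI crypt peaks were under 2.5-fold and called in no sample, while SI crypt sample 1 called 5 peaks elsewhere in the window. The strongest SI villus peak, at 30.6 kb and closer to the TSS of Pilrb2, had a -log10 q of 12.1 and was called in sample 1 (3.12).

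**Figure D3:**
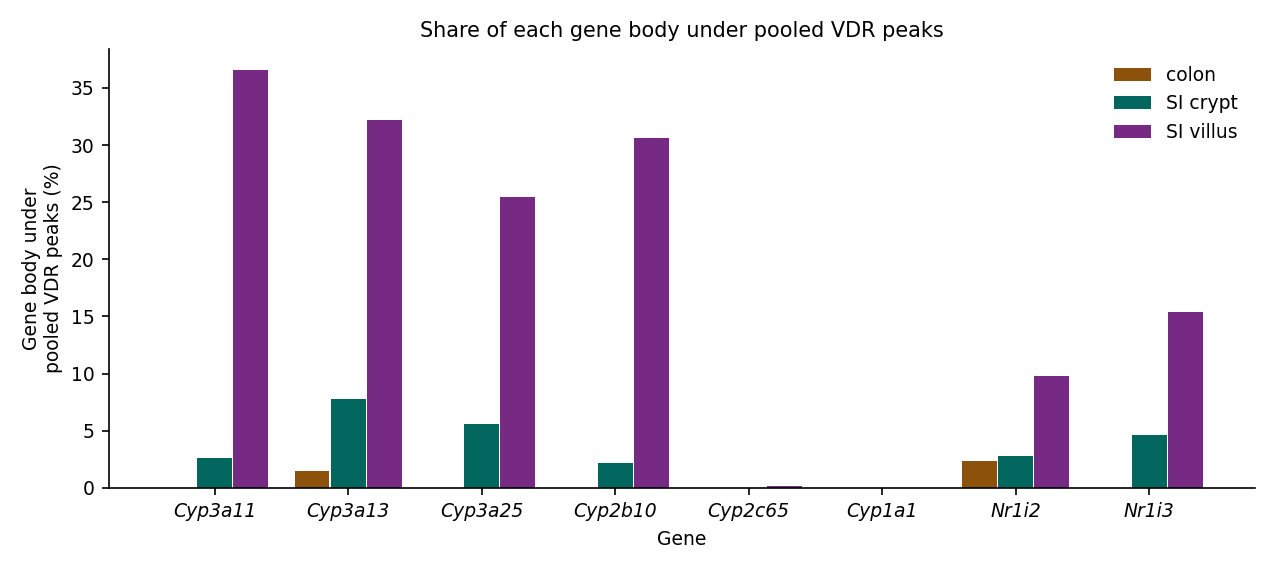
Share of each gene body, in percent, that lay under pooled VDR peaks, with 1 bar for each compartment and the 8 genes along the horizontal axis. The SI villus bars of Cyp3a11, Cyp3a13, Cyp3a25 and Cyp2b10 stand between 25.5% and 36.6%, above the SI crypt and colon bars of the same genes.

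VDR signal spread along the gene bodies of Cyp3a11, Cyp3a13, Cyp3a25 and Cyp2b10 in the SI villus, as the plot of gene body shares shows. Peaks covered 36.6% of the Cyp3a11 gene body, a share that 0.912% of protein-coding genes reached, and 32.2%, 25.5% and 30.6% of those of Cyp3a13, Cyp3a25 and Cyp2b10. These 4 were the members with at least 20% of the gene body under SI villus VDR peaks, where the background was 1.97% of protein-coding genes, and no member reached 20% in the SI crypt (background 1.45%) or the colon (background 1.58%). SI crypt peaks covered 2.60%, 7.77%, 5.59% and 2.2% of the same genes, and colon peaks 1.50% of Cyp3a13 and none of the others. Nr1i2 was covered over 9.81% in the SI villus and Nr1i3 over 15.4%, shares that 4.08% and 2.64% of protein-coding genes reached.

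These gene body peaks were shallow. In Cyp3a11 the SI villus held 15, with folds from 1.48 to 3.27, and 13 of them were called in no sample. In Cyp3a13 14 of 16 were called in no sample, in Cyp3a25 10 of 12 and in Cyp2b10 12 of 14, and all 16 of Cyp3a13 and all 14 of Cyp2b10 were under 2.5-fold. Across the 8 genes the 71 SI villus peaks with a summit in a gene body had a median fold enrichment of 2.13, with 13 in ATAC peaks and 12 called in a sample. The 20 SI villus peaks in the flanks had a median of 3.45, with 6 in ATAC peaks and 14 called in a sample. The SI crypt medians were 2.39 for 16 gene body peaks, none of them in an ATAC peak, and 3.67 for 14 flank peaks, 7 of them in one. The colon went the other way on few peaks. Its medians were 2.72 for 5 gene body peaks, 2 of them in an ATAC peak, and 2.53 for 11 flank peaks, 1 of them in one. With no input sample in these calls, signal that follows the gene body for a reason other than VDR cannot be told apart from bound VDR.

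Cyp2b10, a classical target gene of CAR, had an upstream pair of VDR peaks. It lies on the plus strand at chr7:26682639-26711643 and had 1 VDR peak in the colon, 7 in the SI crypt and 21 in the SI villus. A site near -9.7 kb appeared in all 3 pooled lists, with a fold enrichment of 4.67, 6.45 and 5.34 and a -log10 q of 7.91, 15.7 and 12.2, but 1 single sample called it (SI villus sample 3, at 1.47). Its nearest TSS was that of the predicted gene Gm6434. The second site, at -8.3 kb, was likewise nearest to the Gm6434 TSS. It had a fold enrichment of 4.29 in the SI crypt and 5.07 in the SI villus and was called in SI villus sample 1 (4.16). Both are shown, on the plus strand, because they pair a sharp VDR peak with an ATAC peak; the windows are chr7:26672855-26673054 and chr7:26674226-26674425 of mm9, and capitals mark the hexamers and, in the second, a match to the xenobiotic response element TNGCGTG of the aryl hydrocarbon receptor.
Cyp2b10 -9.7 kb: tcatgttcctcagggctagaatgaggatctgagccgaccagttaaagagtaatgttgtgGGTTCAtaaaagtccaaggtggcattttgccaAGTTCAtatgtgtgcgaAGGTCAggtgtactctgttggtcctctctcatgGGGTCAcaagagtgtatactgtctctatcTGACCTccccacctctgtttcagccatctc
Cyp2b10 -8.3 kb: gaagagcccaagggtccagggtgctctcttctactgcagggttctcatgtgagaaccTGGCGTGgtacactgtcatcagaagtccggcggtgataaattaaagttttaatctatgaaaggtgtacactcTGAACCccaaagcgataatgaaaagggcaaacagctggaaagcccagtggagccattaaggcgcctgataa
The first window holds 5 hexamers and the second 1 hexamer and 1 xenobiotic response element.

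At -8.3 kb of Cyp2b10, ATAC signal was called in all 3 SI villus samples (24.7, 17.5 and 10.6) and all 3 SI crypt samples (8.48, 13.8 and 10.7) and in no colon sample. At the site near -9.7 kb it was called in SI villus samples 1 and 2 (17.7 and 12.8) and SI crypt sample 2 (3.69). The strongest SI villus VDR peak of Cyp2b10 by -log10 q was downstream, at 39.0 kb, with 17.0 in the pooled list. It was called in SI villus sample 1 (4.42) and, as a narrower peak, in SI crypt sample 1 (10.7).

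Cyp2c65, a CYP2C enzyme of the intestine, was the member with more VDR peaks in the colon than in the small intestine, with 6 against 1 in the SI crypt and 1 in the SI villus. It lies on the plus strand at chr19:39135505-39168434. A promoter peak at -0.2 kb was common to the 3 pooled lists, with a fold enrichment of 5.75, 6.17 and 5.21 and a -log10 q of 13.6, 11.3 and 9.43. SI crypt sample 4 (11.7) and SI villus sample 4 (8.35) called it, and no colon sample did. The colon also had a run of 3 peaks from -17.6 to -15.9 kb, and the middle one, at -16.7 kb with a fold enrichment of 2.53, was called in colon samples 1, 2 and 3 (4.95, 4.25 and 8.37) and in no SI sample. That site lay in no ATAC peak. A further 2 colon peaks lay in the body of the neighbouring gene Cyp2c55. The Cyp2c55 gene body plus 30 kb held 14 VDR peaks in the colon, 2 in the SI crypt and 2 in the SI villus. All colon peaks of Cyp2c65 but the promoter peak lay on the Cyp2c55 side. The higher colon count was thus not particular to Cyp2c65.

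Cyp1a1, which oxidizes polycyclic aromatic compounds and is the standard target of the aryl hydrocarbon receptor, had 1 VDR peak in each SI compartment. The gene lies on the plus strand at chr9:57545420-57551629. The peak was in the promoter, at -0.5 kb, with a fold enrichment of 7.73 and a -log10 q of 23.3 in the SI villus, where samples 1 and 2 called it (15.2 and 7.71). Its SI crypt peak had a fold enrichment of 4.97 and a -log10 q of 7.41 and was called in no sample, and the colon had none. The Cyp1a1 promoter had an ATAC peak at -0.9 kb, which did not overlap the VDR peak but lay next to it. Merged over the compartments, the ATAC peak ended at chr9:57544699 and the VDR peak began at chr9:57544712. The promoter sites of Cyp2c65 and Cyp1a1 are shown on the plus strand as the VDR peaks of the group next to a TSS with the highest fold enrichment, at chr19:39135178-39135377 and chr9:57544808-57545007 of mm9, with capitals as above.
Cyp2c65 -0.2 kb: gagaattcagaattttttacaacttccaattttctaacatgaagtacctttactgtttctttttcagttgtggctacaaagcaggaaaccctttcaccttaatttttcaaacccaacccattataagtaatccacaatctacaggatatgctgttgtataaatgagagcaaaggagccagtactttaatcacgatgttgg
Cyp1a1 -0.5 kb: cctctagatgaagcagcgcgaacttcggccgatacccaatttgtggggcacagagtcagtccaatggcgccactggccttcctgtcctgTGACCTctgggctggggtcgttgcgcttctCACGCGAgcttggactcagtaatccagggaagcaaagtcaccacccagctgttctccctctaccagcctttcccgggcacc
The Cyp2c65 window holds no hexamer of these 4 forms, and the Cyp1a1 window holds 1 hexamer and 1 xenobiotic response element, both on the opposite strand.

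**Figure D4:**
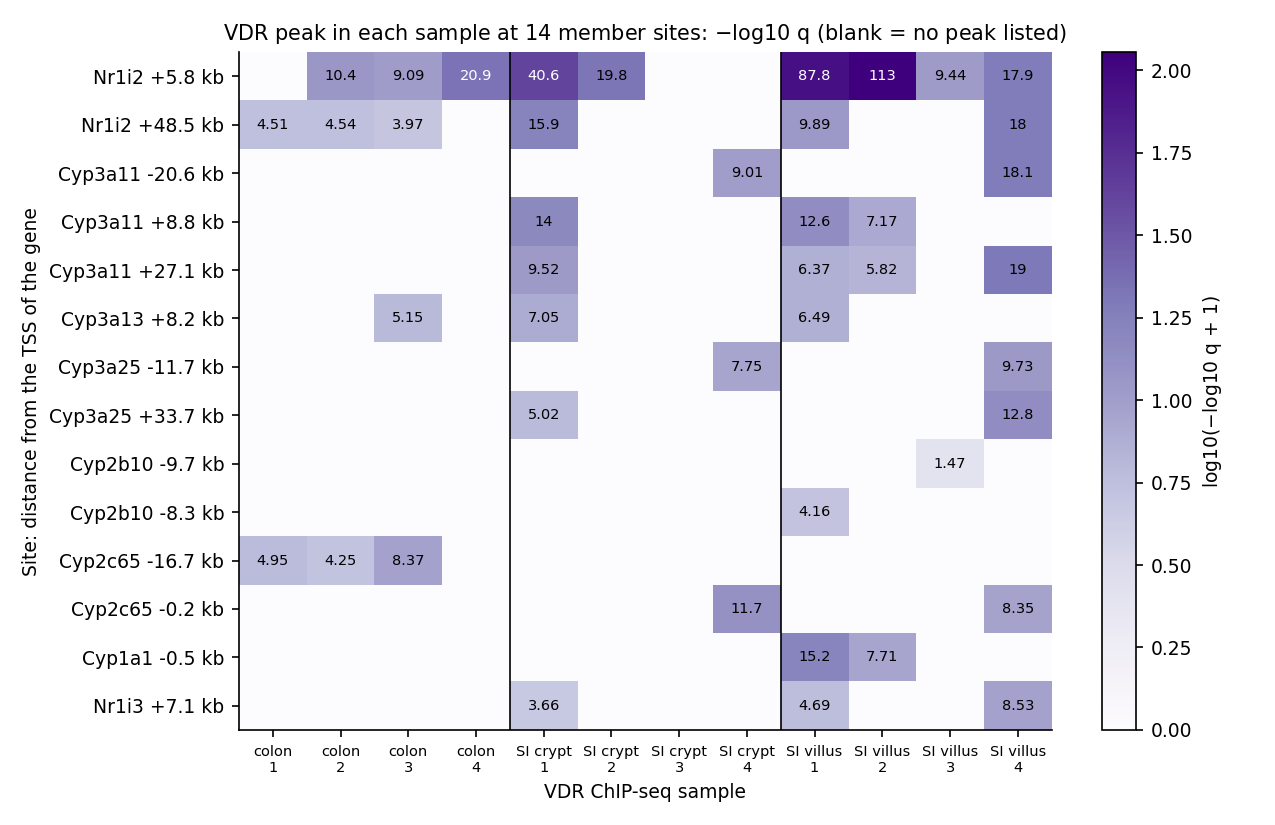
Calls of 14 VDR sites at the members in the 12 single VDR samples, with samples along the horizontal axis and sites by gene and distance from the TSS in kb along the vertical axis. Each colored cell gives the -log10 q of the peak that the sample called there and blank cells are samples with no call; the Nr1i2 site at 5.8 kb is the one with calls in all 4 SI villus samples, from 9.44 to 113.

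The difference between compartments was tested site by site on the single samples. Pooled peaks of the 3 lists were merged into 34864 VDR sites, 100 of them at the members, and the samples that called each site were compared with two-sided Fisher's exact tests, adjusted over all sites by Benjamini-Hochberg. No site reached an adjusted p of 0.05 in any of the 3 comparisons, so 0 of the 100 member sites did, with a background of 0%. At an unadjusted p under 0.05 there were 196 sites for colon against SI crypt (0.562%), 246 for colon against SI villus (0.706%) and 29 for SI crypt against SI villus (0.0832%), and 0 of the member sites in each. The exact permutation test of rank scores gave 0 adjusted calls and 301, 374 and 59 unadjusted ones, and the exact McNemar test of samples with the same number could give none, since its smallest p over 4 pairs is 0.125. With 4 samples against 4 the smallest two-sided exact p is 0.0286. An adjusted p of 0.05 could then be reached only if most of the 34864 sites had that p. The 0 adjusted calls of the Fisher's and permutation tests were thus all but fixed by the number of samples. No conclusion is drawn from them. Among the member sites the smallest Fisher's exact p was 0.143 in both comparisons with the colon and 0.429 for SI crypt against SI villus, with an adjusted p of 1. With 4 samples a group, tests adjusted over all sites cannot say whether the higher pooled SI villus counts hold at any single site. A site called in no sample could show no difference. Of the 100 member sites, 67 were called in no sample, against 44.5% of all VDR sites. In at least 1 sample of the colon, SI crypt or SI villus, 7, 21 and 26 were called, against 32.5%, 28.6% and 28.1% of all. The Fisher's exact p-values ask whether calls went with the compartment, and differences between samples may be technical. The Fisher's and permutation tests took samples of different compartments as independent, though a mouse may be behind samples of several compartments.

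More ATAC sites at the members were called in the SI villus than in the colon, and the count of the SI crypt depended on the length of its list. The 159 pooled ATAC peaks merged into 88 sites, of which 20 were called in 3 of 3 SI villus and 0 of 3 colon samples (the background over 99309 ATAC sites was 8.63%). In the SI crypt 13 were called in 3 of 3 samples and in 0 of 3 colon samples (background 7.52%), and 6 of these were also among the 20. In the opposite direction, 2 were called in all colon and no SI villus samples (background 1.56%) and 2 in all colon and no SI crypt samples (background 1.75%). Between the SI fractions, 6 sites were called in all SI villus and no SI crypt samples (background 3.02%) and 2 the other way round (background 3.24%). Beside these counts, the ATAC lists of the SI were longer, with 64782 pooled peaks in the SI villus and 74734 in the SI crypt against 39428 in the colon, and with equal lists the pooled ATAC peaks at the members numbered 50 in the SI villus and 27 in both the SI crypt and the colon.

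The 20 sites open in the SI villus and not in the colon were spread over all 8 genes. Cyp3a25 and Cyp2b10 had 4 each, Cyp3a11 and Nr1i2 had 3 each, Cyp3a13 and Cyp1a1 had 2 each, and Cyp2c65 and Nr1i3 had 1 each. One was an upstream site of Cyp3a11 at -1.5 kb, where the -log10 q was 26.8, 21.5 and 5.70 in the SI villus and 6.01, 8.23 and 12.2 in the SI crypt. Another was upstream of Cyp3a13 at -15.1 kb, with 33.2, 29.7 and 5.18 in the SI villus and 8.39, 7.72 and 8.21 in the SI crypt. SI villus sample 3 gave the lowest of the SI villus values at both. A site of the opposite kind lay upstream of Nr1i2 at -10.1 kb, with 10.1, 16.3 and 31.8 in the colon and no call in the SI. In Cyp3a13 an intron site at 19.3 kb was likewise called in the colon alone, at 5.46, 4.35 and 7.18.

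Promoters of the members were open in most compartments. Within 1 kb of the TSS, ATAC peaks were called in the pooled lists of the SI crypt and SI villus for all 8 genes and of the colon for 6, the exceptions being Cyp3a11 and Cyp1a1. At Cyp3a25 the colon peak was in the pooled list alone (-log10 q of 3.45) and called in no sample. The background was 49% in the colon, 55.6% in the SI crypt and 52.2% in the SI villus. The colon list did hold a weak ATAC peak at -1.2 kb of Cyp1a1, just outside that distance, with a -log10 q of 5.04 and a call in no sample. At the Cyp3a11 promoter the 3 SI villus samples gave a -log10 q of 11.1, 5.26 and 6.13, while the SI crypt had a call in the pooled list alone. The Cyp3a13 promoter was strongest in the colon, at 16.2, 38.8 and 53.2, against 12.4, 21.3 and 24.0 in the SI crypt and 29.9, 12.4 and 3.67 in the SI villus, and these ranges overlapped. The Cyp2b10 promoter gave 33.8, 31.0 and 14.3 in the SI villus, 13.7, 6.60 and 12.8 in the SI crypt and 11.4 in colon sample 3 alone. The Nr1i3 promoter gave 33.4, 29.4 and 8.36 in the SI villus, 7.90, 11.3 and 12.9 in the SI crypt and 6.27, 4.35 and 13.2 in the colon. At Cyp2b10 all 3 SI villus samples lay above every other sample, sample 3 narrowly, and at Nr1i3 SI villus sample 3 lay within the range of the other compartments.

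**Figure D5:**
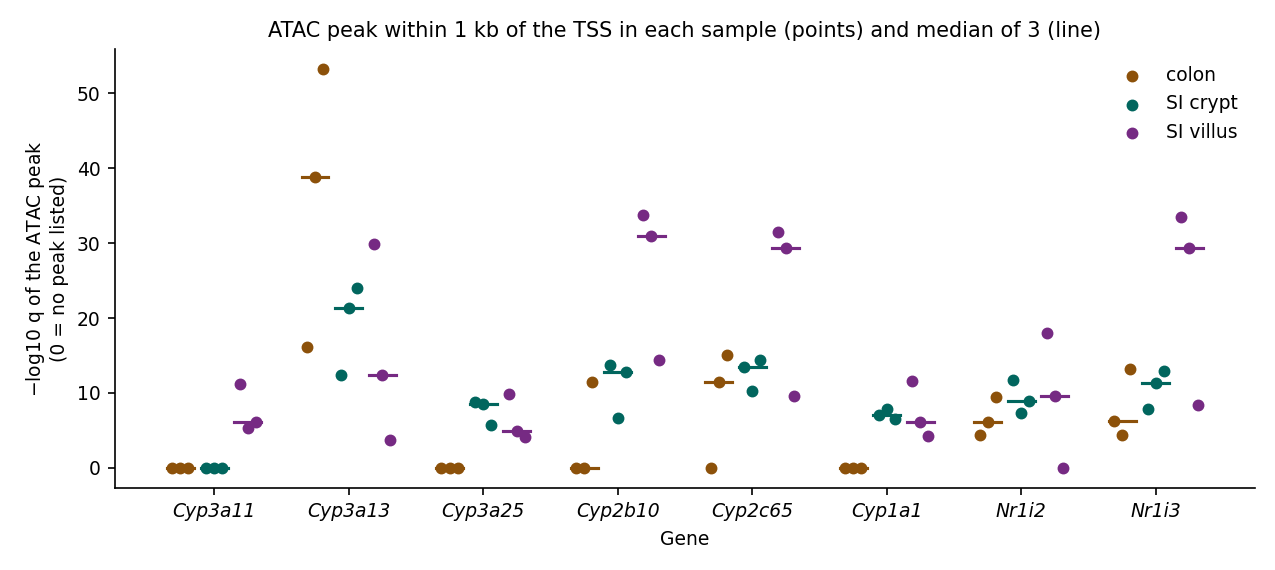
ATAC-seq -log10 q of the strongest peak within 1 kb of the TSS of each member, with 1 point for each of the 3 single samples of a compartment and 0 where a sample called no peak. The colon samples are at 0 for Cyp3a11, Cyp3a25 and Cyp1a1 and reach 53.2 for Cyp3a13, and the SI villus samples run from 14.3 to 33.8 for Cyp2b10.

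Sequence matches at the member VDR peaks were few beyond the single hexamer. The 200 bp at each summit were searched on both strands for the vitamin D response element DR3 (direct repeats of the hexamers spaced by 3 bases), for DR4 and ER6, to which PXR and CAR bind, and for DR1. None of the 137 member peaks held any of these, while DR3 was found in 2.05%, 2.31% and 1.69% of all colon, SI crypt and SI villus peaks, DR4 in 0.979%, 0.874% and 0.78%, ER6 in 0.144%, 0.134% and 0.111%, and DR1 in 0.485%, 0.362% and 0.404%. With shares this low over all peaks, their absence from 16, 30 and 91 peaks is not a result about the members. A single hexamer, which these repeats contain, was found in 10 of 16, 13 of 30 and 43 of 91 member peaks, beside 56.8%, 46.1% and 48.1% of all peaks. The xenobiotic response element was found in 0, 3 and 5 member peaks, at Cyp2b10, Cyp1a1, Cyp3a13 and Cyp3a25, beside 2.91%, 3.87% and 3.73% of all. A match is a description of the letters, and a window with no match says nothing of whether the factor binds there.

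The wider pathway was covered by lists of 37 related genes, 36 of which were found in the annotation (Cyb5a was not). Of these, 11 had a VDR peak in the gene body or within 30 kb in the colon, 14 in the SI crypt and 15 in the SI villus, read against the same backgrounds of 63.1%, 51.5% and 56.9%, and 20 had none in any compartment. None of the 4 other CYP2B genes had one. Among 14 other CYP2C genes Cyp2c55 led, with a peak at -1.7 kb of its TSS at a -log10 q of 109, 145 and 115, and 4 had a peak in some compartment. Among 6 other CYP3A genes, Cyp3a59 had a peak at -10.7 kb in the SI crypt (12.8) and Cyp3a41a one in the SI villus (6.85). Cyp1a2 shared the Cyp1a1 promoter peak, as the genes are neighbours, and Cyp1b1 had none.

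Genes that serve the CYPs, and the sensors and partners of the receptors, made up 9 of the 16 list genes with a VDR peak. Por, the reductase that supplies electrons to microsomal CYPs, had an intron peak at 5.0 kb with a -log10 q of 40.2, 44.7 and 78.9. Alas1, the first enzyme of heme synthesis, had its leading peak at -17.4 kb in the colon and SI villus (17.4 and 18.6), nearest to Poc1a, and Cyb5r3 had peaks of up to 7.05, while Pgrmc1 had none. All 6 of Ahr, Arnt, Ahrr, Rxra, Rxrb and Vdr had a peak in the colon and in the SI villus (backgrounds of 63.1% and 56.9%). All but Arnt had one in the SI crypt (background 51.5%). The TSS nearest to the leading peak was that of another gene at Ahr (Gm17436), Rxrb (H2-Ke6 or Slc39a7) and Arnt (Ctsk or Ctss). The same held for Ahrr in the colon and SI villus (Pdcd6). The leading Arnt peaks were called in no sample. The leading peak of Vdr itself, at -19.3 kb, had 38.9, 98.0 and 103, and that of Rxra, the partner of VDR, PXR and CAR, had 23.8, 55.5 and 82.6 at 83.5 kb. Beside these, the Nr1i2 intron peak had a -log10 q above that of Vdr in the SI villus (193 against 103), close to it in the colon (39.2 against 38.9) and lower in the SI crypt (70.3 against 98.0). By fold enrichment the Vdr peak was the higher in every compartment, at 6.65 against 5.41 in the colon, 14.0 against 7.14 in the SI crypt and 15.0 against 11.3 in the SI villus.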

How the data were processed

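The authors removed adapters with NGmerge (ChIP-seq) or cutadapt 1.9.1 (ATAC-seq), aligned reads to mm9 with Bowtie2 2.2.6, and merged the samples of a compartment with SAMtools 0.1.19. They called peaks with MACS2 2.1.0.20150731 with no control, a q of 0.05 and 1 fragment or tag kept per position. The deposited lists give fold enrichment as a ratio to the local background, -log10 q, and positions. In the pooled lists, the deposited intervals are centred on the summit. The 6 differential site lists hold the authors' own comparisons by direction and were not used. All 232606 pooled peaks matched 1 MACS2 entry.

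Peaks at the members were counted with Python 3.11.15, numpy 2.4.6, scipy 1.17.1 and pysam 0.24.0, with 1 bp as the minimum overlap. Sites were tested over 4 samples a group with Fisher's exact test, and motifs were searched as fixed letters. The counting and tests were tested on simulated data. Alternatives covered flanks, thresholds, overlap rules, list length, motif windows, a replicate block and each sample left out. The members and gene lists were chosen with earlier results of these data known. Genes named are the members, the genes nearest to their peaks, the lists of related genes with their leading members, the 3 genes most like Nr1i2, and marker genes. Replicate numbers were not taken as pairs. The result of 1 marker gene and the sequence of 1 peak are not reported here.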

Additional observations from a re-analysis of the deposited data

Results flagged for a closer look

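Among the 4 colon VDR samples, sample 3 called 6 peaks in the member windows and the others 3 each, a gap that Dixon's test marks at its 95% level, but per 1000 of its own peaks its count (0.978) lay within the range of the others (0.297 to 1.70). Among the 4 SI crypt samples, sample 1 called 22 against 1 to 3. It had the lowest share of fragments kept (28.5%) and the most peaks (13381), and per 1000 of its own peaks its count (1.64) did not stand apart. Among the 4 SI villus samples, sample 4 had 3.44 member peaks per 1000 of its peaks against 1.30 to 1.64. Of these, sample 4 called the upstream sites of Cyp3a11 and Cyp3a25 and the Cyp2c65 promoter, as SI crypt sample 4 did. Chance marks about 1 in 20 groups of untied values, and 3 of 7 groups were marked here. The groups were not independent, as the same samples were tested by count and again per 1000 peaks. In the colon the tied counts fix the gap at its largest value. No conclusion is drawn from the number marked.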

How the results depend on the processing

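Member counts rest on weak calls, no vehicle or input sample, and 4 or 3 samples a group. Counts of VDR peaks at the members in the colon, SI crypt and SI villus (16, 30 and 91) fell to 3, 1 and 9 for peaks called in 2 or more samples. With each sample left out, and a call required in at least 1 remaining sample, they ranged from 4 to 7 (4 without colon sample 3), 5 to 14 (5 without SI crypt sample 1) and 18 to 25, against 7, 14 and 26 with all samples. A -log10 q of at least 5 left 16 in the SI crypt and 54 in the SI villus, and 10 kb flanks left 9 in the colon. ATAC counts moved to 17 (colon) and 33 (SI crypt) for 2 or more samples, 38 (SI crypt) and 42 (SI villus) with 10 kb flanks, and 27 (SI crypt, the count of the colon) with equal list lengths. VDR peaks in ATAC peaks moved in the colon (3) to 6 with ATAC peaks of any compartment. In the SI crypt (7) they moved to 3 with at least 50 percent covered, 4 by midpoint and 2 with equal list lengths. In the SI villus (19) they moved to 7 and 10 by the first 2 of these rules. Counting VDR peaks called in at least 1 sample, chosen after seeing the data, gave 0, 4 and 11. DR1 matches rose from 0 to 5 in whole peaks and 3 in 500 bp. The cause of these shifts was not tested beyond the smaller lists themselves. Of 127 alternatives, 93 gave a count equal to the reported one or within 1.5 times of it, among them 50 kb flanks (23 VDR and 37 ATAC peaks in the colon), equal lists of VDR peaks (62 in the SI villus), the summit and midpoint rules for windows, and, chosen after seeing the data, the original MACS2 intervals. Tests of VDR sites gave 0 adjusted calls under each alternative run, an outcome all but fixed in advance by the number of samples. These alternatives are among the 93, and that part of the 93 says nothing of how stable the results are. Without colon sample 4, 1 member site (Cyp2c65 at -16.7 kb) had an unadjusted exact p of 0.0286 in both comparisons with the colon, as had Cyp3a11 at 27.1 kb against the colon without SI villus sample 3, and as had 1 member site in the colon against the SI villus with equal list lengths, each with an adjusted p of 1. Same-numbered samples correlated between -0.187 and 0.543, over 0.1 in 3 of 12 pairs, and 0 samples correlated best with their own number in both other compartments. Those 3 pairs were SI crypt and SI villus samples 1, 3 and 4, at 0.388, 0.543 and 0.234. Each was the highest value of its sample with the other SI fraction, while SI crypt and SI villus sample 2 gave 0.082. Whether equal numbers mark the same mice was not tested. The replicate block gave 0 calls, but it could give none, as its smallest p over 4 pairs is 0.125.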
